A study of Mus musculus with 6 samples.

Results

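The nuclear genes for the subunits of the oxidative phosphorylation machinery were examined in a mouse gastric adenocarcinoma line and its paclitaxel (PTX)-resistant derivative. Members were the rows of the series' gene count table named Ndufa, Ndufb, Ndufc, Ndufs or Ndufv, Uqcr, Atp5, Cox4 to Cox8, Sdha to Sdhd, or Cyc1. The Ndufaf assembly factors (8 rows) and a pseudogene row ending in -ps (1 row) were left out. This gave 89 rows of 21959, with 40 in complex I, 4 in complex II, 9 in complex III, 18 in complex IV and 18 in complex V. Members were assigned to a complex by name. They were chosen by name and not by a cut on their values, though earlier results of these data were known.

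RNA from 2 lines was sequenced, with 3 libraries each. MTC, labelled MPC and control, came from gastric organoids of a C57BL/6 J mouse with Mist1-CreER and floxed Cdh1 and Trp53 alleles (flox/flox for each) that were recombined ex vivo and grown as a subcutaneous tumour in a BALB/c nude mouse. MTC-R, labelled MPC-PTX, was derived from MTC by over 30 cycles of PTX, a taxane that stabilises microtubules. Both lines carry the same label for genotype, CDH1-/-;Trp53-/-, grew in RPMI medium with serum, and were each selected from a single clone. Clonal differences and PTX resistance therefore cannot be told apart. The labels do not say whether the 3 libraries of a line came from separate cultures, so the p-values measure the spread between these libraries, which may be technical. Cdh1, whose product E-cadherin joins epithelial cells, was at 131 to 136 CPM in all 6 libraries, and Trp53 at 3.25 to 6.59 CPM. These are counts over whole genes and do not show whether the floxed exons were lost.

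Oxidative phosphorylation takes place in the inner mitochondrial membrane. Complex I (NADH dehydrogenase) and complex II (succinate dehydrogenase) pass electrons to ubiquinone, complex III hands them to cytochrome c, and complex IV reduces oxygen. Complexes I, III and IV pump protons, and complex V (ATP synthase) lets them flow back to make ATP. Complex II is built from nuclear-encoded subunits alone, whereas the other complexes join nuclear subunits to a few that mitochondrial DNA encodes.

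Total counts ranged from 16574580 to 23148182 per library, and the members held 1.02 to 1.27% of them. All 8 epithelial marker genes were lower in MTC-R by edgeR's quasi-likelihood test, beside 15.6% of all genes tested. Their summed level ranged from 10109 to 11690 CPM in MTC and from 6297 to 6479 CPM in MTC-R. Summed levels of 8 fibroblast markers were 9.83 to 10.9 CPM in MTC and 8.63 to 9.92 CPM in MTC-R, and those of 8 leukocyte markers 11.1 to 12.6 and 9.51 to 10.6 CPM. Ptprc, the common leukocyte antigen, stayed at or below 0.297 CPM in every library. The 6 endothelial markers summed to 3.40 to 4.78 CPM in MTC and 3.20 to 3.45 CPM in MTC-R, and 8 muscle markers to 39.0 to 45.1 and 25.2 to 32.9 CPM. By the same test, 1 of 2 fibroblast and 2 of 5 muscle markers tested were also lower. None of 1 leukocyte and 2 endothelial markers tested was called. The 3 MTC libraries varied more than the 3 MTC-R libraries, with a common biological coefficient of variation of 17.9% against 3.01%.

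Levels are given as CPM, counts per 1000000 on library sizes scaled by the trimmed mean of M-values (TMM). Fold changes are MTC-R over MTC on the log2 scale with their standard error (SE), from edgeR's quasi-likelihood test over all genes tested. A gene was called higher or lower at an adjusted p (Benjamini-Hochberg) below 0.05.

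Promoter sequences are shown for 4 subunit genes: Uqcr11 and Atp5j, both called lower in MTC-R, and Sdha and Sdhb, partner subunits of complex II of which Sdha was called lower and Sdhb was not called. Each stretch starts 120 bases before the RefSeq start site (GRCm38.p6) and is written 5′ to 3′ on the strand of the gene. Capitals mark matches, on either strand, to CCGGAAG (the core bound by ETS factors such as GABPA), GCGCATGCG (an NRF1 motif) or AAGATGGCG (a YY1 motif), factors known for regulating respiratory genes.

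Uqcr11 (chr10:80406818-80406941, minus strand): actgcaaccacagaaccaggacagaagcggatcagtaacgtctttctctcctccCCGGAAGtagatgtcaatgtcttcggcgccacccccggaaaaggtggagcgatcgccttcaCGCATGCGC

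Atp5j (chr16:84834977-84835096, minus strand): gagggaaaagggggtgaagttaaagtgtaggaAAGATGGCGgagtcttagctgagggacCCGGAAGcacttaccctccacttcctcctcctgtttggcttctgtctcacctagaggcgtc

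Sdha (chr13:74350241-74350360, minus strand): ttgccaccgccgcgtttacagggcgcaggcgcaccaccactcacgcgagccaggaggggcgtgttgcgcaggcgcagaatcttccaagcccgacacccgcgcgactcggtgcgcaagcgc

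Sdhb (chr4:140961151-140961283, plus strand): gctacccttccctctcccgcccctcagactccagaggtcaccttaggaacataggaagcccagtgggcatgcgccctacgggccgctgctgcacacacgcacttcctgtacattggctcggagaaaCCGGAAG

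The Uqcr11 stretch held the ETS core with its first base at -66 from the start and the NRF1 motif, on the opposite strand, from -5. The Atp5j stretch, one of 2 start sites listed for this gene, was chosen because it holds the YY1 motif. That motif starts at -88 and the ETS core at -61. The Sdhb stretch held the ETS core from 7 bases after the start, and the Sdha stretch held none of the 3 motifs. Among the 70 member symbols with at least 1 window of 300 bases (250 before and 50 after the start), CCGGAAG was found in 17 (24.3%), GCGCATGCG in 8 (11.4%) and AAGATGGCG in 7 (10.0%). The shares among all 27025 symbols in the promoter table were 9.93%, 1.95% and 1.64%. Of the called members, only Uqcr11 and Atp5j held any of the 3 motifs. The windows of Sdha, Ndufb1, Ndufa4 and Cox7c held none, and Ndufs1 and Atp5mpl had no window. The printed stretches are therefore not typical of the members called lower. The median log2 fold change was -0.13 for the 17 members with CCGGAAG (range -0.44 to 0.22), -0.17 for the 8 with GCGCATGCG (-0.44 to 0.07) and -0.22 for the 7 with AAGATGGCG (-0.31 to 0.07). It was -0.14 for the 27 members with any of the motifs. Of the 43 members with windows but none of the motifs, those tested had a median of -0.10. No test was made between these groups. A match is a description of the letters and not evidence of binding.

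Of the 89 members, 81 passed the filter on low counts. Relative to MTC, MTC-R had 1 member higher and 7 lower among them, while over all 11795 genes tested 14.1% were called higher and 15.6% lower. The share of members called was thus below the share of all genes in both directions. At an unadjusted p below 0.05, edgeR gave 4 members higher and 14 lower, beside 20.8% and 20.2% of all genes tested, and DESeq2 called 1 higher and 11 lower, beside 12.3% and 16.6%. The one that rose was Ndufs1, in complex I. Those that fell were Ndufb1 and Ndufa4, grouped with complex I by name, Sdha in complex II, Uqcr11 in complex III, Cox7c in complex IV, and Atp5mpl and Atp5j in complex V. None of the 81 had a change above 1 on the log2 scale with an unadjusted p below 0.05, a combination found in 8.11% of all genes tested. The median log2 fold change of the members was -0.10, with 31 above and 50 below 0, beside 0.04 over all genes tested.

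**Figure D1:**
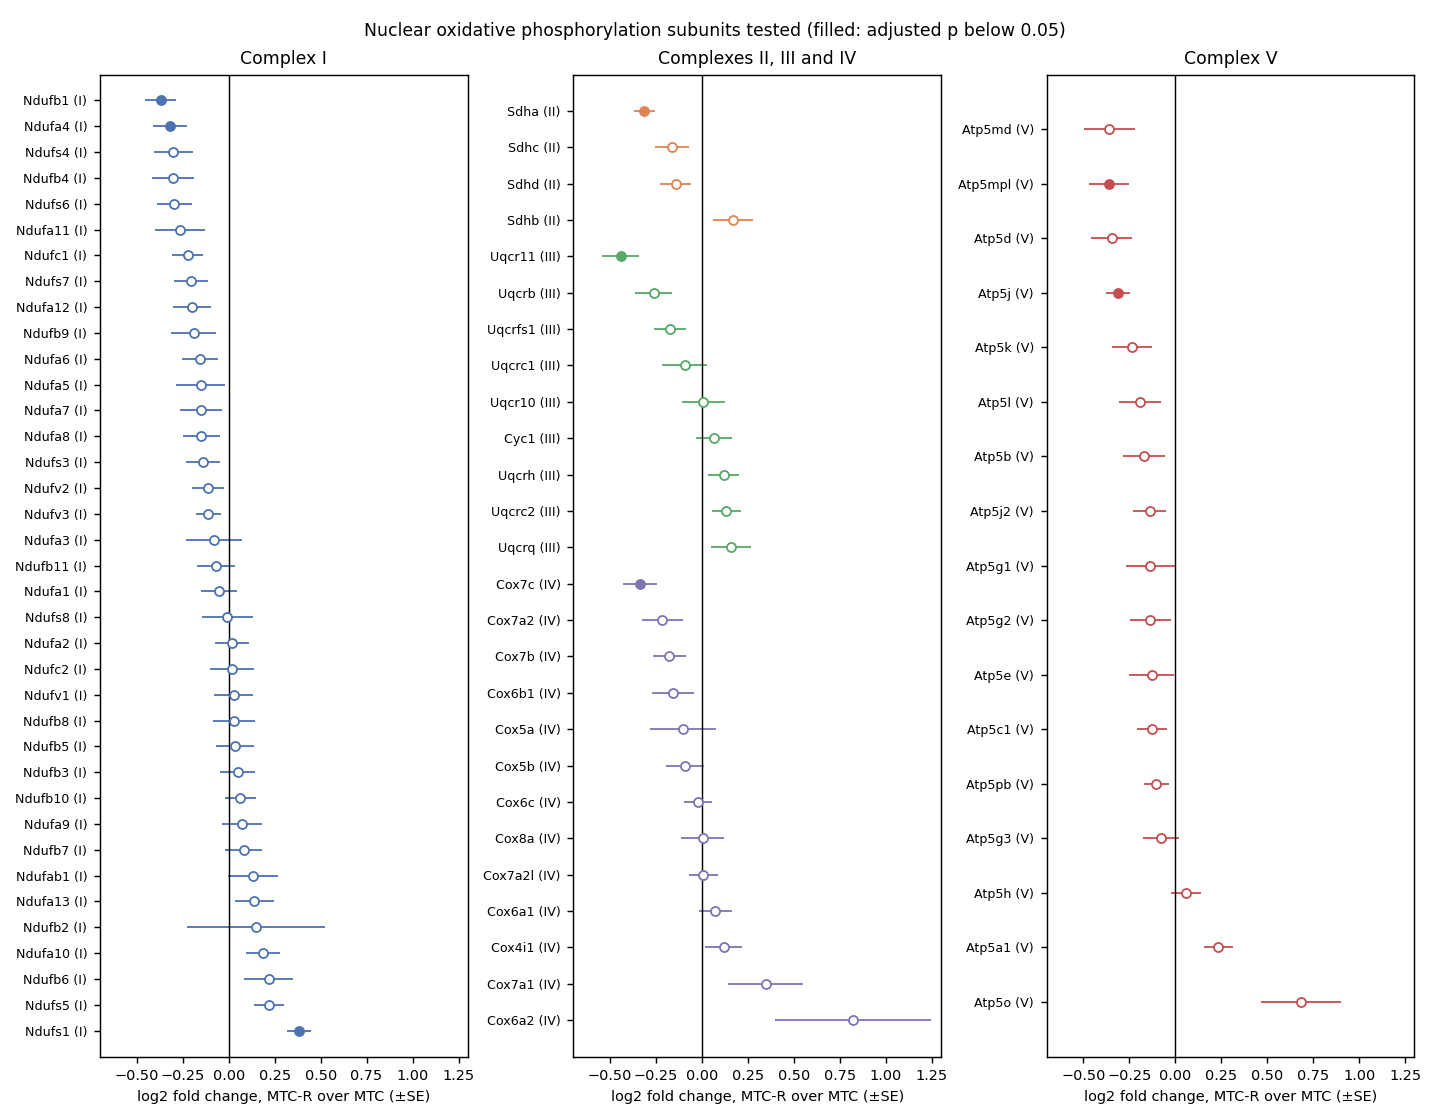
Log2 fold change (MTC-R over MTC, x axis) of 80 of the 81 members tested, with bars for 1 SE, ordered from lowest to highest within each complex. Filled points mark the 8 members with an adjusted p below 0.05. Most points lie between -0.4 and 0.25, and the 2 farthest to the right, Cox6a2 at 0.82 and Atp5o at 0.68, have wide bars and low counts, and Cox6a2 met the filter on low counts only through its MTC-R libraries.

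The levels of the members within MTC differed by library. Replicate 1 was the highest MTC library for 71 of the 81 members and replicate 3 the lowest for 72, whereas over all genes tested replicate 1 was highest for 40.4% and replicate 3 lowest for 41.6%. Measured against the mean of the 3 MTC-R libraries, the median log2 level of the members was 0.25 in MTC replicate 1, 0.09 in replicate 2 and -0.09 in replicate 3. By this median, the members thus lay above the MTC-R mean in MTC replicates 1 and 2 and below it in replicate 3. The member transcripts were short, with a median of 758 bases against 2852 bases over all genes tested. Gene-wise deviations from the mean over libraries correlated with GC content at Spearman's rho of 0.41 in MTC replicate 1, 0.27 in replicate 2 and -0.42 in replicate 3. With transcript length the values were -0.37, -0.19 and 0.27. These are correlations across genes within one library, and genes are not independent replicates.

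The counts of calls moved with this spread. Without MTC replicate 3, 2 members were higher and 43 lower, beside 25.4% higher and 27.1% lower among all genes tested in that fit, and the median member log2 fold change was -0.23. Without MTC replicate 1, 7 were higher and 7 lower, beside 18.3% and 17.7% of all genes tested in that fit, and the median was -0.01. With an offset for GC content and transcript length, 10 were higher and 11 lower, beside 20.5% and 21.0% of all genes tested, and the median was -0.05. The 10 higher under the offset were Ndufs1, Ndufs5, Ndufa10, Ndufb6, Sdhb, Uqcrh, Uqcrq, Cox4i1, Atp5a1 and Atp5o, and the 11 lower were the 7 named above with Ndufb4, Ndufs6, Ndufs7 and Atp5d.

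**Figure D2:**
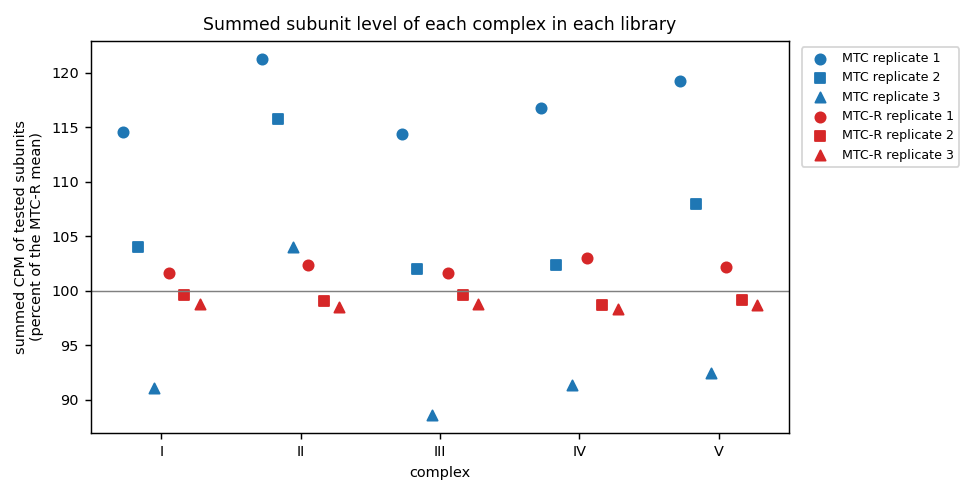
Summed CPM of the tested subunits of each complex in each library, as a percent of the mean of the 3 MTC-R libraries (y axis, which does not start at 0). Circles, squares and triangles are replicates 1, 2 and 3, with MTC in blue and MTC-R in red. In complexes I, III, IV and V the MTC libraries lie on both sides of the MTC-R libraries, and in complex II all 3 MTC libraries lie above them. Of the complex II subunits, only Sdha was without overlap between the lines.

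The summed level of all members was 13073, 11804 and 10280 CPM in MTC replicates 1 to 3 and 11380, 11060 and 10996 CPM in MTC-R. The sum did not differ between the lines beyond the spread of MTC (11719 ± 1399 against 11145 ± 206 CPM, mean ± SD, n = 3 each, two-sided exact permutation p = 0.6, where 0.1 is the smallest this design can give). Per complex, the summed level of tested subunits was 3033 ± 346 CPM in MTC and 2939 ± 42.8 CPM in MTC-R for complex I, and 1063 ± 135 and 1045 ± 15.8 CPM for complex III. It was 1827 ± 225 and 1765 ± 45.7 CPM for complex IV and 5081 ± 641 and 4767 ± 89.0 CPM for complex V. In these 4 complexes the libraries of the lines overlapped. Complex II was at 762, 728 and 654 CPM in MTC and 643, 623 and 619 CPM in MTC-R, so all 3 MTC-R libraries lay below all MTC libraries. Of its subunits, only Sdha was without overlap between the lines (log2 fold change -0.31). Sdhb, Sdhc and Sdhd each overlapped, with log2 fold changes of 0.17, -0.16 and -0.14.

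The 8 called members did not overlap between the lines, with each MTC-R library beyond each MTC library. Of the 81 tested members, 8 had all MTC-R libraries above all MTC libraries and 16 had all below, beside 24.2% and 22.7% of all genes tested. Cox6a2, which met the filter only through MTC-R, is among the 8.

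**Figure D3:**
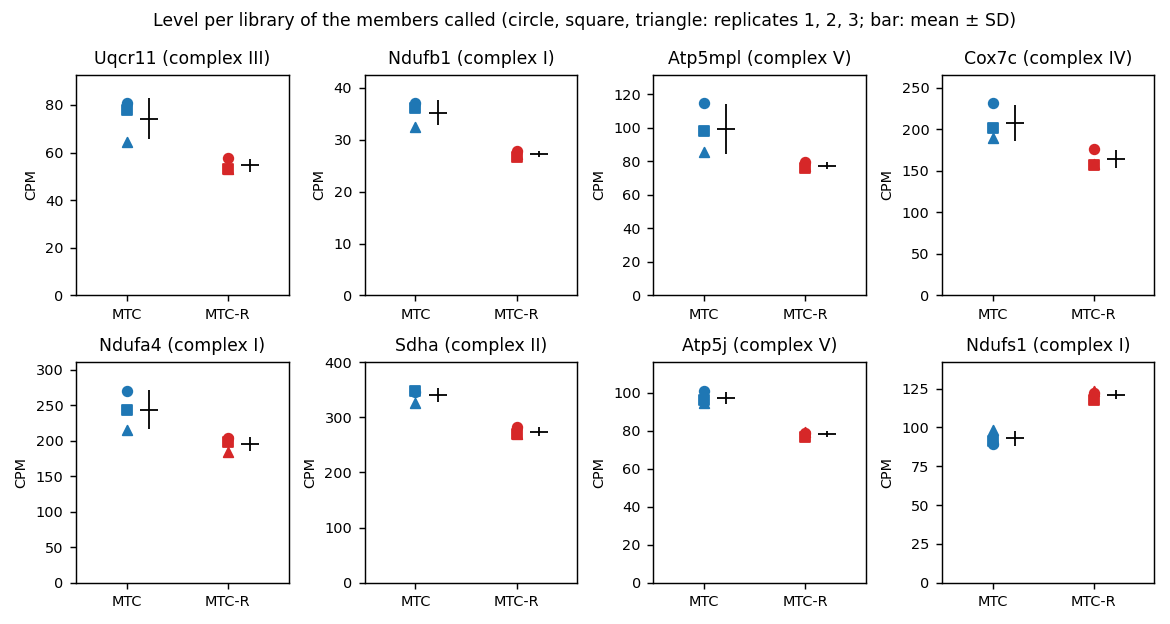
CPM (y axis, from 0) of the 8 called members in each library, with circles, squares and triangles for replicates 1, 2 and 3, and the mean ± SD of the 3 libraries beside them. Ndufs1 is higher in every MTC-R library, and the other 7 are lower in every MTC-R library.

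Complex I takes electrons from NADH through a chain of flavin and iron-sulphur centres carried by 7 nuclear core subunits, around which accessory subunits are assembled. Of the 38 complex I members tested, 1 was higher and 2 were lower, beside 14.1% and 15.6% of all genes tested. Their median log2 fold change was -0.08, with 16 above 0. Ndufs1, the iron-sulphur subunit at the electron entry site (chromosome 1, 63143596-63176833; positions are those of GENCODE M21 on GRCm38), was at 89.3, 91.3 and 98.4 CPM in MTC and 122, 118 and 124 CPM in MTC-R. It rose by 0.38 on the log2 scale (SE 0.07, adjusted p = 0.00514, edgeR), and it was still called in each of the 14 alternative fits. Among the other core subunits, 5 had fold changes below 0 and 1 above. None of them was called by edgeR or DESeq2 or had an unadjusted p below 0.05.

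Ndufs7 and Ndufs3 had log2 fold changes of -0.20 (SE 0.09) and -0.14 (SE 0.09), and Ndufs8, which carries iron-sulphur clusters near the membrane arm, had -0.01 (SE 0.14). Ndufv1, the subunit that binds NADH and flavin, had 0.03 (SE 0.10), and its partner Ndufv2 -0.11 (SE 0.08). The signs of Ndufs8 and Ndufv1 changed with the scaling used. Ndufs1 was the core subunit farthest from 0.

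Of the 31 accessory subunits tested, 2 fell and none rose by edgeR's quasi-likelihood test, beside 15.6% and 14.1% of all genes tested. At an unadjusted p below 0.05, 1 was higher and 6 were lower, beside 20.8% and 20.2% of all genes tested, and DESeq2 called none higher and 4 lower, beside 12.3% and 16.6%. Ndufb1, a small membrane-arm subunit (chromosome 12, 101968090-101977068), was at 37.0, 36.1 and 32.5 CPM in MTC and 27.7, 26.7 and 27.3 CPM in MTC-R (log2 fold change -0.37, SE 0.08, adjusted p = 0.0147, edgeR). Ndufa4 (chromosome 6, 11900292-11907497) was found first in complex I preparations and has since been assigned to complex IV. It was at 271, 244 and 216 CPM in MTC and 204, 198 and 184 CPM in MTC-R (log2 fold change -0.32, SE 0.09, adjusted p = 0.0375, edgeR). For both genes the lowest MTC library was replicate 3. Neither was called when MTC replicate 2 or any single MTC-R library was left out, with adjusted p-values of up to 0.0796 for Ndufb1 and 0.147 for Ndufa4.

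Next in order were Ndufs4 and Ndufb4, with log2 fold changes of -0.30 (SE 0.11) and -0.30 (SE 0.11), and edgeR called neither. Among the alternatives with all libraries, DESeq2 and edgeR with DESeq2 size factors called Ndufs4, and the offset for GC content and length, with or without the replicate block, called Ndufb4. Ndufs4, an accessory subunit needed for stable assembly of the electron input module, was at 116, 95.2 and 89.3 CPM in MTC and 81.4, 77.4 and 84.8 CPM in MTC-R. Its libraries did not overlap between the lines. At the other end, Ndufs5 and Ndufb6 had log2 fold changes of 0.22 (SE 0.08) and 0.22 (SE 0.13), and Ndufa10 0.19 (SE 0.09). Ndufa10 was at 208, 195 and 164 CPM in MTC and 216, 213 and 216 CPM in MTC-R, which did not overlap. Ndufa4l2, the paralogue of Ndufa4 that hypoxia induces, was read 0 times in MTC and 3 times in MTC-R, against 14326 and 12270 counts of Ndufa4. The paralogue row Ndufb11b had 0 counts in every library.

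Complex II oxidises succinate and belongs to both the citric acid cycle and the respiratory chain. Its flavoprotein Sdha and iron-sulphur protein Sdhb form the catalytic head, and Sdhc and Sdhd anchor it in the membrane. Sdha (chromosome 13, 74322254-74350280) was at 346, 348 and 327 CPM in MTC and 283, 270 and 269 CPM in MTC-R. It fell by 0.31 on the log2 scale (SE 0.06, adjusted p = 0.00654, edgeR), and it was called in each of the 14 alternative fits, with adjusted p-values of up to 0.0492. Sdhb (chromosome 4, 140961203-140979193) was at 91.7, 81.1 and 68.1 CPM in MTC and 92.1, 90.3 and 88.7 CPM in MTC-R (log2 fold change 0.17, SE 0.11, adjusted p = 0.28, edgeR). All 3 MTC-R values of Sdhb lay close to the highest MTC value, and the lines overlapped. Sdhc and Sdhd had log2 fold changes of -0.16 (SE 0.09) and -0.14 (SE 0.08), and neither was called.

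The ratio of Sdha to Sdhb counts within a library does not depend on scaling between libraries. Effects of GC content and transcript length were not removed from this or the other ratios given below. Sdha has 2900 bases at 48.5% GC and Sdhb 1142 bases at 54.9%. The ratio was 3.77, 4.29 and 4.79 in MTC and 3.07, 2.98 and 3.04 in MTC-R. The lines did not overlap, and the MTC libraries spread far more widely. On the log2 scale the mean ratio was lower by 0.49 in MTC-R (log2 ratio change -0.49). This pair was chosen after its values had been seen, and the ratio is given with no test.

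**Figure D4:**
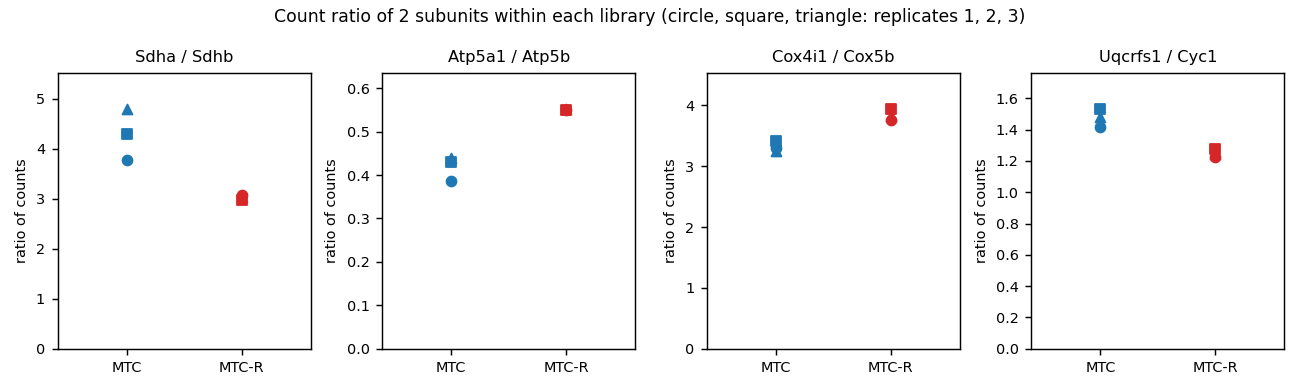
Ratio of the counts of 2 subunits of one complex within each library (y axes, from 0), with circles, squares and triangles for replicates 1, 2 and 3. For Sdha over Sdhb the MTC-R libraries lie at 2.98 to 3.07, below the MTC libraries, and for Atp5a1 over Atp5b they lie at 0.550 to 0.552, above the MTC libraries at 0.386 to 0.440.

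Complex III moves electrons from ubiquinol to cytochrome c through the Rieske protein (Uqcrfs1) and cytochrome c1 (Cyc1). Of its 9 members, 1 fell and none rose, the median log2 fold change was 0.01, and 5 lay above 0, but without MTC replicate 3 the median was -0.14 and 2 lay above 0. Over all genes tested, edgeR called 15.6% lower and 14.1% higher in the fit with all libraries. At an unadjusted p below 0.05, edgeR gave 2 lower and none higher, beside 20.2% and 20.8% of all genes tested. DESeq2 called 1 lower and none higher, beside 16.6% and 12.3%. Uqcr11, a small subunit of the outer edge of the complex (chromosome 10, 80402997-80406830), had the lowest fold change of all 81 members. It was at 80.7, 77.8 and 64.3 CPM in MTC and 57.8, 53.0 and 53.2 CPM in MTC-R (log2 fold change -0.44, SE 0.10, adjusted p = 0.0157, edgeR). The call was lost when MTC replicate 2, MTC-R replicate 2 or MTC-R replicate 3 was left out, with adjusted p-values of up to 0.0771. Its promoter stretch, printed above, was one of 5 that held more than one of the motifs.

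The redox subunits of complex III were not called by edgeR or DESeq2. Uqcrfs1 was at 197, 185 and 158 CPM in MTC and 163, 161 and 156 CPM in MTC-R (log2 fold change -0.17, SE 0.09), and Cyc1 had a log2 fold change of 0.07 (SE 0.10). The core proteins Uqcrc1 and Uqcrc2 had -0.09 (SE 0.12) and 0.13 (SE 0.08). Among the small subunits, Uqcrb had -0.26 (SE 0.10) and Uqcrq 0.16 (SE 0.11), with Uqcrh at 0.12 (SE 0.09) and Uqcr10 at 0.01 (SE 0.12). The sign of Cyc1 and of Uqcrh turned negative without MTC replicate 3.

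Complex IV, cytochrome c oxidase, has nuclear subunits that surround a catalytic core encoded in mitochondrial DNA, several with isoforms restricted to muscle, lung or testis. Of 18 members, 13 were tested, 1 fell and none rose by edgeR, beside 15.6% and 14.1% of all genes tested. At an unadjusted p below 0.05, edgeR also gave 1 lower and none higher, beside 20.2% and 20.8%. DESeq2 called 1 lower and none higher, beside 16.6% and 12.3%. Cox7c (chromosome 13, 86044816-86046904) was at 231, 201 and 189 CPM in MTC and 176, 157 and 158 CPM in MTC-R (log2 fold change -0.34, SE 0.09, adjusted p = 0.0299, edgeR). The call was lost without MTC replicate 2 or any single MTC-R library, with adjusted p-values of up to 0.123. Of the 50-base stretches of its transcript, 53.0% also occurred in transcripts of other annotated genes, so its count is uncertain.

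The other ubiquitous subunits were not called by edgeR or DESeq2. Cox4i1, an early assembling subunit with a regulatory role, was at 451, 406 and 342 CPM in MTC and 448, 428 and 425 CPM in MTC-R (log2 fold change 0.12, SE 0.10). Its sign turned negative without MTC replicate 3. Cox7a2 and Cox7b had log2 fold changes of -0.21 (SE 0.11) and -0.18 (SE 0.09), Cox6b1 -0.16 (SE 0.11), Cox5a -0.10 (SE 0.18) and Cox5b -0.09 (SE 0.10). Cox6a1, Cox8a and Cox7a2l had 0.07 (SE 0.09), 0.00 (SE 0.12) and 0.01 (SE 0.08). Cox7a2l is a factor that links complexes III and IV into supercomplexes. The signs of Cox8a and Cox7a2l changed with the scaling used.

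The tissue-restricted isoforms were at or near the floor in both lines. Cox8c and Cox7b2 had 0 counts in every library, and 3 counts, the limit that a count of 0 allows over a line, would be 0.0473% of Cox8a with Cox8c in MTC and 0.0443% in MTC-R. Cox4i2, the isoform known from lung, made up 0.0255% of the Cox4i counts in MTC (6 of its counts beside 23482 of Cox4i1, exact 95% Clopper-Pearson interval 0.00938 to 0.0556%) and 0.0258% in MTC-R (7 beside 27137, 0.0104 to 0.0531%). Over the 3 libraries of a line, Cox6b2 was read 1 time in MTC and 4 times in MTC-R, and Cox8b 7 and 11 times. The heart and muscle isoforms passed the filter with few counts. Cox7a1 was at 1.43, 1.50 and 1.35 CPM in MTC and 2.09, 1.76 and 1.54 CPM in MTC-R (log2 fold change 0.35, SE 0.21), and it was not called by edgeR. Cox6a2 was counted 9, 11 and 4 times in the MTC libraries and 17, 13 and 15 times in MTC-R. It met the filter only through the MTC-R libraries, where it is high, so its log2 fold change of 0.82 (SE 0.43) is given as a description. These intervals and limits cover the error of counting alone, because PCR copies of a molecule cannot be recognised in these libraries.

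Complex V couples the return of protons to ATP synthesis. Its F1 head holds the catalytic alpha (Atp5a1) and beta (Atp5b) subunits around a central stalk, a ring of c subunits turns in the membrane, and a peripheral stalk holds the head still. Of the 17 members tested, 2 fell and none rose, beside 15.6% and 14.1% of all genes tested. Their median log2 fold change was -0.14, with 3 above 0. At an unadjusted p below 0.05, edgeR gave 2 higher and 4 lower, beside 20.8% and 20.2% of all genes tested, and DESeq2 called none higher and 4 lower, beside 12.3% and 16.6%.

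In the head, Atp5a1 was at 738, 708 and 611 CPM in MTC and 820, 806 and 794 CPM in MTC-R (log2 fold change 0.23, SE 0.08, adjusted p = 0.0664, edgeR), with no overlap between the lines. Atp5b (chromosome 10, 128083273-128090391) was at 1911, 1643 and 1390 CPM in MTC and 1493, 1464 and 1439 CPM in MTC-R (log2 fold change -0.17, SE 0.11, adjusted p = 0.299, edgeR), and its lines overlapped. The count ratio of Atp5a1 to Atp5b was 0.386, 0.431 and 0.440 in MTC and 0.550, 0.551 and 0.552 in MTC-R. The MTC-R libraries were thus nearly identical in this ratio and above every MTC library. This pair too was chosen after its values had been seen and is given with no test. Both other ratios computed also separated the lines. Cox4i1 over Cox5b was at 3.30, 3.41 and 3.24 in MTC and 3.76, 3.94 and 3.83 in MTC-R, and Uqcrfs1 over Cyc1 at 1.42, 1.53 and 1.48 and at 1.22, 1.28 and 1.24. A ratio without overlap is therefore not particular to Sdha with Sdhb or Atp5a1 with Atp5b. The gamma subunit Atp5c1 had a log2 fold change of -0.13 (SE 0.08), and the delta subunit Atp5d -0.35 (SE 0.11, adjusted p = 0.0540, edgeR), which lay just outside the threshold. Among the alternatives with all libraries, each called Atp5d except library size alone.

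Of the peripheral stalk, Atp5j (coupling factor 6, chromosome 16, 84827866-84835625) was at 101, 95.9 and 94.8 CPM in MTC and 78.9, 76.6 and 79.6 CPM in MTC-R. It fell by 0.31 on the log2 scale (SE 0.06, adjusted p = 0.00969, edgeR), with close replicates in both lines. It was not called when any single MTC-R library was left out, with adjusted p-values of up to 0.0657. Atp5pb and Atp5h had log2 fold changes of -0.10 (SE 0.07) and 0.06 (SE 0.08). Atp5o, which joins the stalk to the head, was counted 21, 27 and 25 times in the MTC libraries and 39, 46 and 38 times in MTC-R (log2 fold change 0.68, SE 0.22, adjusted p = 0.0520, edgeR), and the second row with this name had 0 in every library. Of the 50-base stretches of the first Atp5o transcript 35.5% were shared with other genes, and of the second 89.8%, so the count of this subunit is uncertain.

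All 5 small membrane subunits of complex V had fold changes below 0, from -0.36 to -0.14, and 1 of them fell. Atp5mpl, a small proteolipid (chromosome 12, 111961375-111966977), was at 115, 98.0 and 85.5 CPM in MTC and 79.6, 76.0 and 77.0 CPM in MTC-R (log2 fold change -0.36, SE 0.11, adjusted p = 0.0441, edgeR). It was the called member that lost its call most often, in 5 of the 14 alternative fits, including scaling by library size alone, with adjusted p-values of up to 0.149. Atp5md, which links ATP synthase dimers, had -0.36 (SE 0.14) and was not called by edgeR. DESeq2 called it, as did edgeR with the replicate block, with or without the offset. In the c-ring, Atp5g1, Atp5g2 and Atp5g3 had log2 fold changes of -0.14 (SE 0.13), -0.13 (SE 0.11) and -0.08 (SE 0.10). They encode the same mature protein behind different import sequences. Per transcript length, Atp5g3 supplied 50.0 to 52.4% of the c-ring level in every library, Atp5g2 30.9 to 32.4% and Atp5g1 16.6 to 18.6%. The mix did not separate the lines. These shares are uncertain because 100% of the Atp5g2 and 66.0% of the Atp5g1 stretches of 50 bases were shared with other genes.

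Compared per kilobase of transcript over all 6 libraries, the highest members were Atp5b (812 CPM per kb), Cox4i1 (559), Atp5g3 (533), Atp5h (417) and Uqcrq (394), in 3 different complexes. The lowest tested were Cox6a2 (0.843 CPM per kb), Atp5o (1.93), Ndufb2 (3.23), Cox7a1 (4.10) and Ndufab1 (9.09), the mitochondrial acyl carrier protein. Ndufb2 and Ndufab1 shared 24.4% and 31.2% of their 50-base stretches with other genes, and their log2 fold changes were 0.15 (SE 0.37) and 0.13 (SE 0.14). The level of Atp5h is likewise uncertain, with 50.5% of its stretches shared, and so are the counts of Atp5l (68.5%), Uqcrb (43.2%), Ndufs5 (41.2%), Atp5md (40.6%), Ndufb4 (37.0%) and Ndufs3 (35.8%).

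Fold changes were also read by chromosome. All 6 tested members on chromosome 13 (Cox7c, Ndufs4, Ndufs6, Sdha, Uqcrb and Uqcrfs1) lay below 0, with a median of -0.30, and the median of the other 447 tested genes of that chromosome was -0.15. All 5 on chromosome 10 (Atp5b, Atp5d, Ndufa12, Ndufs7 and Uqcr11) lay below 0, with a median of -0.20 beside -0.18 for the other 544 genes. All 4 on chromosome 4 (Ndufb6, Ndufs5, Sdhb and Uqcrh) lay above 0, with a median of 0.19 beside 0.20 for the other 735 genes. The 3 on chromosome 8 (Cox4i1, Ndufa13 and Ndufb7) also lay above 0, at a median of 0.12 beside 0.26 for the other 660. Members and neighbours also had medians of the same sign on several further chromosomes. Among these were chromosome 9 (-0.14 for the members beside -0.07) and chromosome 12 (-0.36 beside -0.14). On others, such as chromosomes 2 and 5, the medians differed in sign. All 5 on chromosome 2 (Atp5c1, Atp5e, Atp5g3, Ndufa8 and Ndufs3) lay below 0, with a median of -0.13 beside 0.04 for the other 920 genes, and the 3 on chromosome 5 (Atp5j2, Atp5k and Cox6a1) had a median of -0.14 beside 0.12 for the other 775. Without MTC replicate 3 the medians of the members on chromosomes 13, 10, 4 and 8 were -0.41, -0.34, 0.06 and -0.03, and those of the other genes -0.14, -0.21, 0.11 and 0.20. Sdha and Sdhb thus lay on chromosomes whose other genes had medians of opposite sign, -0.15 and 0.20, while Ndufs1 at 0.38 lay above the other genes of chromosome 1 (0.08). Across the 81 members, the fold change correlated with the median of the other genes of the same chromosome (Pearson's r 0.54, Spearman's rho 0.65, 19 chromosomes), a description of genes that share libraries and are not independent. Relative to those medians, 60 of the 81 members were lower, by a median of 0.12 (log2 difference -0.12).

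**Figure D5:**
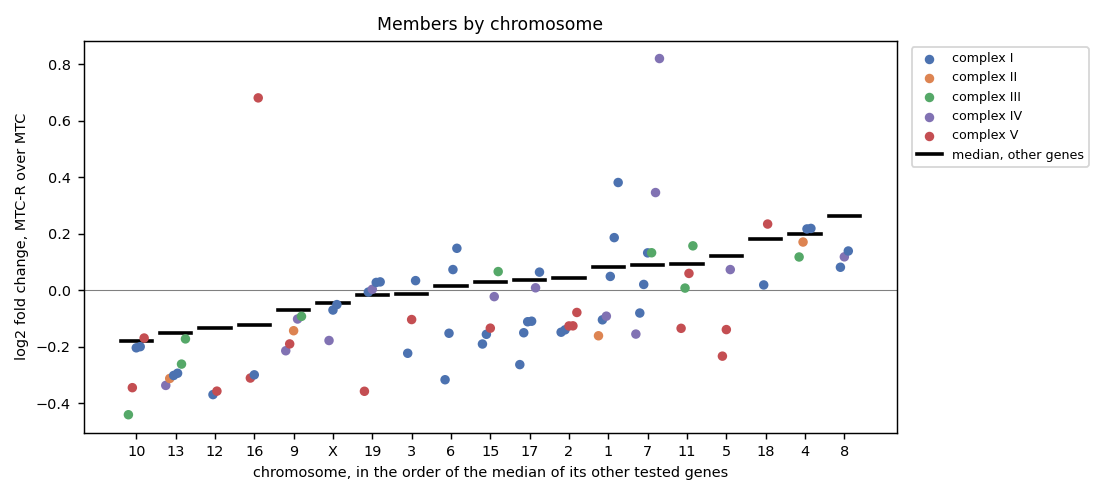
Log2 fold change (MTC-R over MTC, y axis) of each tested member, coloured by complex, on its chromosome (x axis), with black bars for the median of the other tested genes of that chromosome. Chromosomes run from the lowest median, -0.18 on chromosome 10, to the highest, 0.26 on chromosome 8, and the members lie below the bars in most columns, on chromosome 2 all below 0 under a bar at 0.04.

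The 13 protein-coding genes of mitochondrial DNA, the partners of the nuclear subunits, gave no call among the 12 tested by edgeR's quasi-likelihood test, none at an unadjusted p below 0.05, and none with DESeq2. Over all genes tested, edgeR called 14.1% higher and 15.6% lower. The median log2 fold change of the 12 was -0.16, with 3 above 0. Without MTC replicate 3 it was 0.05, with 7 above 0 and 1 called lower, beside 27.1% of all genes tested in that fit. The most abundant of them, mt-Co1 of complex IV, was at 9330, 9899 and 12321 CPM in MTC and 9125, 10218 and 10452 CPM in MTC-R (log2 fold change -0.08, SE 0.12). In contrast to most nuclear members, mt-Co1 was highest in MTC replicate 3. These transcripts were read after poly-A selection, so their levels depend on their tails as well as their abundance.

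Genes for assembly factors, which help build the complexes without staying in them, were read from the same fit. The counts called in these and the following lists stand beside 14.1% higher and 15.6% lower among all genes tested, and nothing particular to a list is read from them. Counts at an unadjusted p below 0.05 stand beside 20.8% higher and 20.2% lower, and those of DESeq2 beside 12.3% and 16.6%. Among 18 tested complex I assembly genes, 2 were higher and 2 lower. Ndufaf4 rose from 22.5 ± 4.42 to 36.7 ± 1.51 CPM (n = 3 each, log2 fold change 0.70, SE 0.15, adjusted p = 0.0107, edgeR) and Tmem186 fell by 0.54 (SE 0.11). For complex III, 2 of 6 were higher, Ttc19 and Lyrm7, at 0.42 (SE 0.11) and 0.63 (SE 0.17), and for complex IV, 4 of 22 were higher and 2 lower. Higd2a and Coa3 fell, with log2 fold changes of -0.54 (SE 0.07) and -0.47 (SE 0.07), and Cmc2 rose by 0.50 (SE 0.10). For complex V, 1 of 4 was higher, Atpaf1, a chaperone of the beta subunit, at 0.65 (SE 0.13). None of 4 for complex II was called by edgeR or DESeq2 or had an unadjusted p below 0.05.

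Of 22 tested genes of the citric acid cycle and pyruvate entry, 1 was higher and 2 were lower. Ogdh, a subunit of the 2-oxoglutarate dehydrogenase complex, rose from 191 ± 17.0 to 245 ± 3.32 CPM (n = 3 each, log2 fold change 0.36, SE 0.08). The pyruvate dehydrogenase kinase Pdk2 fell by 0.84 on the log2 scale (SE 0.17). The other gene called lower was Pdk4, of the same family, read 57, 63 and 55 times in the MTC libraries and 2, 22 and 11 times in those of MTC-R. It met the filter only through MTC, where it is high, so its levels of 2.97 and 0.577 CPM are given as a description. Among 19 tested regulators of mitochondrial gene expression, 3 were higher and none lower, while at an unadjusted p below 0.05 edgeR gave 6 higher and 1 lower, and DESeq2 called 3 higher and 1 lower. Ppargc1b, a coactivator of respiratory genes, was at 0.531, 0.464 and 0.336 CPM in MTC and 2.01, 1.89 and 2.08 CPM in MTC-R, with 10, 9 and 7 counts and 47, 42 and 35 counts. It met the filter only through MTC-R, where it is high, so it is given as a description although it is among the 3 called. Mterf1a and Mterf1b, near-identical copies whose reads may be shared, rose by 1.21 (SE 0.15) and 0.81 (SE 0.23). Of 6 tested genes for inhibitors and proton leak, 2 were higher and none lower, while at an unadjusted p below 0.05 edgeR gave 2 higher and 1 lower, and DESeq2 called 2 higher and none lower. Ucp2, an inner membrane carrier, rose by 1.27 (SE 0.08), and Slc25a4, the ADP/ATP carrier that serves ATP synthase, by 0.44 (SE 0.07). Of 16 tested genes for cytochrome c, electron transfer flavoprotein and coenzyme Q synthesis, 4 were higher and 2 lower, among them Pdss2 at 0.54 (SE 0.11) and Coq3 at -0.62 (SE 0.15).

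The ribosomal protein genes, which like the members encode parts of large complexes, also gave few calls with all libraries. Of 77 tested Mrpl and Mrps genes, whose products make the mitochondrial ribosome, none was higher and 7 were lower by edgeR, with 10 and 10 at an unadjusted p below 0.05, and DESeq2 called none higher and 8 lower. Their median log2 fold change was 0.04. Over all genes tested, edgeR called 14.1% higher and 15.6% lower, with 20.8% and 20.2% at an unadjusted p below 0.05. DESeq2 called 12.3% and 16.6%. Of 81 tested Rpl and Rps genes, 1 was higher and 4 were lower, with a median of -0.04. Without MTC replicate 3, 1 Mrpl or Mrps gene was higher and 22 were lower, and 1 Rpl or Rps gene was higher and 55 were lower. Among all genes tested in that fit, 25.4% were higher and 27.1% lower. The medians were -0.12 for the Mrpl and Mrps genes and -0.18 for the Rpl and Rps genes.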

How the data were processed

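RNA-seq libraries were prepared from poly-A RNA of MTC and MTC-R cells, 3 per line. The authors trimmed reads with fastp 0.22.0, per the labels, and aligned them with HISAT2. The counting tool, strand setting, genome build and annotation are not given in the sources used here. The deposited values are raw counts per gene, and the per-sample tables hold the same values as the series table. Of 21959 rows, 51 have no gene symbol and were kept under their identifiers.

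Counts were analysed with edgeR 4.0.16 (R 4.3.3), using TMM scaling, filterByExpr with a minimum count of 10, robust quasi-likelihood fits with line as the single term, and Benjamini-Hochberg adjustment over 11795 genes. The scripts were tested on simulated data. Levels are CPM on TMM-scaled library sizes. DESeq2 1.42.0, other scalings and filters, a replicate block, an offset for GC content and length, and fits without each library were tried as alternatives. Replicates of a line differed by more than sampling noise, with 1.84 to 61.1 units of chi-square per gene. Identifiers of all 89 members matched GENCODE M21 (GRCm38), which gave positions and principal transcripts for length, GC content and shared 50-base stretches. Promoter windows came from RefSeq (GRCm38.p6) and matched 70 of the 88 member symbols.

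The members and gene lists were chosen with earlier results of these data known. Members named were, in each complex, the 4 highest and 4 lowest fold changes (all in a complex of 8 or fewer), the isoform families, the catalytic or redox subunits and the 5 highest and lowest levels per length, and from each other list at most 4 genes by adjusted p. Other members named were chosen after their values were seen. The values of 1 tested member and of 1 marker gene are not reported here.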

Additional observations from a re-analysis of the deposited data

How the results depend on the processing

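Median member log2 fold changes stayed below 0 in each alternative, from -0.2304 to -0.0124 over the fits that left out a library. Numbers of members called moved more. The share of all genes called lower also moved, from 15.6% with all libraries to 27.1% without MTC replicate 3. DESeq2 called 11 lower, with 5 called in complex I and 4 in complex V, and edgeR with DESeq2 size factors called 5 in complex I. Library size alone gave 4 higher and was the one alternative, outside the fits that left out a library, to lose a call among the members named (Atp5mpl). With the GC and length offset 10 were higher and 11 lower, with 9 called in complex I, 2 in II, 3 in III, 2 in IV and 5 in V. A call that also needed an absolute log2 fold change above 1, at an unadjusted p below 0.05, gave 0 higher and 0 lower. Leaving out each library in turn gave 1 to 7 higher and 1 to 43 lower, with 1 to 18 called in complex I, 1 to 3 in II, 0 to 4 in III, 0 to 5 in IV and 0 to 15 in V. The extremes of 43, 18, 3, 4, 5, 15 and -0.23 came without MTC replicate 3, and the 7 higher and -0.01 without MTC replicate 1. The cause was not tested. Shares over all genes are given above for the offset, DESeq2 and the fits without MTC replicate 1 or 3. They are not given for the other alternatives, so nothing particular to the members is read from the counts of those fits.

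Replicate numbers were shared between the lines, but same-numbered libraries did not deviate together throughout (correlations 0.15, -0.02 and 0.17), so they were not taken as pairs. The fit with a replicate block gave 1 higher and 10 lower, with 4 called in complex V, and the replicate block with the offset gave 9 higher and 11 lower, with 8 called in complex I, 2 in II, 3 in III and 6 in V. Shares over all genes are not given for these fits, so the counts are not read as particular to the members.

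Fold changes near 0 turned sign with scaling or filter. Ndufs8 became 0.0334 with library size alone, 0.0095 with the replicate block, 0.0278 with the offset and 0.0303 with both. Cox7a2l, Cox8a and Ndufv1 became -0.0276, -0.0327 and -0.0086 with DESeq2, -0.0276, -0.0326 and -0.0086 with DESeq2 size factors, and -0.0258, -0.0311 and -0.0070 with at least 10 counts in every sample, and Cox8a became -0.0029 without the filter. Cox6a2 gave no value where 10 counts were required in every sample. Over the fits without a library, 15 of the 52 members under the naming rule turned sign: Atp5g1 (-0.3078 to 0.0228), Atp5g3 (-0.2283 to 0.0085), Atp5h (-0.0773 to 0.1055), Cox4i1 (-0.0334 to 0.2133), Cox5a (-0.2275 to 0.0438), Cox5b (-0.2298 to 0.0079), Cox6a1 (-0.0531 to 0.1542), Cox7a2l (-0.1173 to 0.0668), Cox8a (-0.1521 to 0.1349), Cyc1 (-0.0718 to 0.1650), Ndufb2 (-0.0709 to 0.6175), Ndufs8 (-0.1928 to 0.1416), Ndufv1 (-0.1260 to 0.1326), Uqcrc1 (-0.2684 to 0.0366) and Uqcrh (-0.0205 to 0.1633).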
